A study of Mus musculus with 4 samples.

Results

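Zfp978, Zfp988 and Zfp991 are zinc finger genes that share 1 stretch of the distal chromosome 4 zinc finger cluster of the mouse. They are 3 of the 49997 genes in the annotation and were chosen by the listed peaks themselves, with the q and fold of their strongest peaks in each list known from earlier results. Every peak in their bodies or within 5 kb on either side was kept, a peak shared by overlapping genes being counted once. This gave 8 of 9866 control peaks and 4 of 16091 irradiated peaks. The study used ChIP-seq, in which DNA bound by an antibody is sequenced, to map the histone mark H3K27me3 in cultured cells of the mouse glioblastoma line GL261. Untreated cells (label Con) were compared with cells labelled IR, which the series title shows to mean radiation treatment; the labels give neither dose nor harvest time. Each condition had 1 H3K27me3 library and 1 input library, made from chromatin without immunoprecipitation, and peaks were listed for each H3K27me3 library alone. With 1 library per condition there was no replicate error, so no test between conditions was made and every interval covers counting error only. A peak list holds no expression, so the cell type of the label could not be checked against marker genes.

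Zinc finger genes of this kind encode DNA-binding proteins with tandem C2H2 fingers, and many of them in the mouse carry a KRAB domain, which recruits the corepressor TRIM28 and histone methyltransferases to transposable elements. They stand in clusters of closely related copies that arose by repeated duplication, and such clusters are known more for H3K9me3 than for H3K27me3. H3K27me3, a trimethylated lysine of histone H3, is the product of Polycomb repressive complex PRC2 and is known for broad domains over silent developmental genes, often around CpG-rich promoters. Reads from near-identical copies can be placed on more than 1 of them, and the labels do not say whether such reads were kept.

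In mm10 coordinates Zfp978 spans chromosome 4 from 147124882 to 147392027, a length of 267 kb. Zfp991 (147132093 to 147180579, 48.5 kb) and Zfp988 (147305604 to 147334067, 28.5 kb) lie wholly inside that span, so each of their peaks is also a peak of Zfp978. The annotation gives the ends of the genes only, so exons, introns and untranslated regions were not resolved.

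The RefSeq promoter table (GRCm38.p6, the assembly of mm10) held 1 of the 3 members, Zfp988, on the + strand. It held promoters of 12 other genes of the cluster, and those of 10 of them aligned with the Zfp988 promoter over at least 250 bases, at 69.7% to 95.9% identity. The pair closest to it are shown beneath it to let the likeness of the copies be seen, each 300 bases from 250 before to 50 after the gene start. They are Zfp534 (chr4:147702582-147702881, - strand, 95.9% identical over 292 aligned bases) and Zfp987 (chr4:146097062-146097361, + strand, 95.8% over 264). The Zfp988 promoter is chr4:147305354-147305653. Capitals mark CG dinucleotides, the site of DNA methylation.

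Zfp988: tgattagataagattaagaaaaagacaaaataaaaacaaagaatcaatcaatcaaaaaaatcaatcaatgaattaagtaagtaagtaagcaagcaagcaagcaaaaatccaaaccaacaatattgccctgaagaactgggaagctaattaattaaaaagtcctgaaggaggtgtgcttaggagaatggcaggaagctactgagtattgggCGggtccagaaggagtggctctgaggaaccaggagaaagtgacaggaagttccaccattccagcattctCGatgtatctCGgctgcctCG

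Zfp534: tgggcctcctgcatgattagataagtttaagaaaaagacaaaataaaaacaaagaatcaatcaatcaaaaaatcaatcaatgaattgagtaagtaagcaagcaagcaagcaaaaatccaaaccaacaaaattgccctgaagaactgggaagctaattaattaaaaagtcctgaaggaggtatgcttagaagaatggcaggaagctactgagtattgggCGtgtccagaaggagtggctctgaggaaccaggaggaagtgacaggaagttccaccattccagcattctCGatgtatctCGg

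Zfp987: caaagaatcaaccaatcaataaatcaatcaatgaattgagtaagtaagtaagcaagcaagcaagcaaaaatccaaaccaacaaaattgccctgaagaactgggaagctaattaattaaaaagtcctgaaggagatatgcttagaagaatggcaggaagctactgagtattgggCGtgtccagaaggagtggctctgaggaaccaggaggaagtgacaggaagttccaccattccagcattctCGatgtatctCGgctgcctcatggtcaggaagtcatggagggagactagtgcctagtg

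CG was searched as the letters CG, which read the same on both strands. It occurred 4 times in the Zfp988 promoter and 3 times in each of the others shown, and 68.6% of 32851 promoters of this length held at least 4, the median being 7. No peak of either list touched the Zfp988 promoter. The nearest control peak lay 11373 bp away and the nearest irradiated peak 6490 bp away. Of the 16 promoters listed for 13 genes of the cluster, 0 were touched by a control peak and 0 by an irradiated peak. The share over all promoters was not counted. Only 7.13% and 9.74% of protein-coding genes had a control or irradiated peak even within 5 kb, so these counts do not set the cluster apart.

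All 3 genes held control peaks, where 7.13% of 21900 protein-coding genes had one within 5 kb, and 2 of the 3 had an irradiated peak, where 9.74% of genes had one. Since the genes were picked for their peaks, these counts describe them and support nothing. Zfp978 held all 8 control and 4 irradiated peaks. Of these, Zfp988 shared 3 control and 2 irradiated peaks, and Zfp991 shared 1 control peak and no irradiated peak. Zfp991 thus belonged to the 2.77% of protein-coding genes with a control peak and no irradiated peak, and the other two to the 4.36% with a peak in both lists. None of the 3 belonged to the 5.39% with an irradiated peak and no control peak. The remaining 4 control peaks and 2 irradiated peaks lay in Zfp978 away from both nested genes. All 12 peaks lay within the body of Zfp978, and none of those assigned to Zfp988 lay within its own body.

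**Figure D1:**
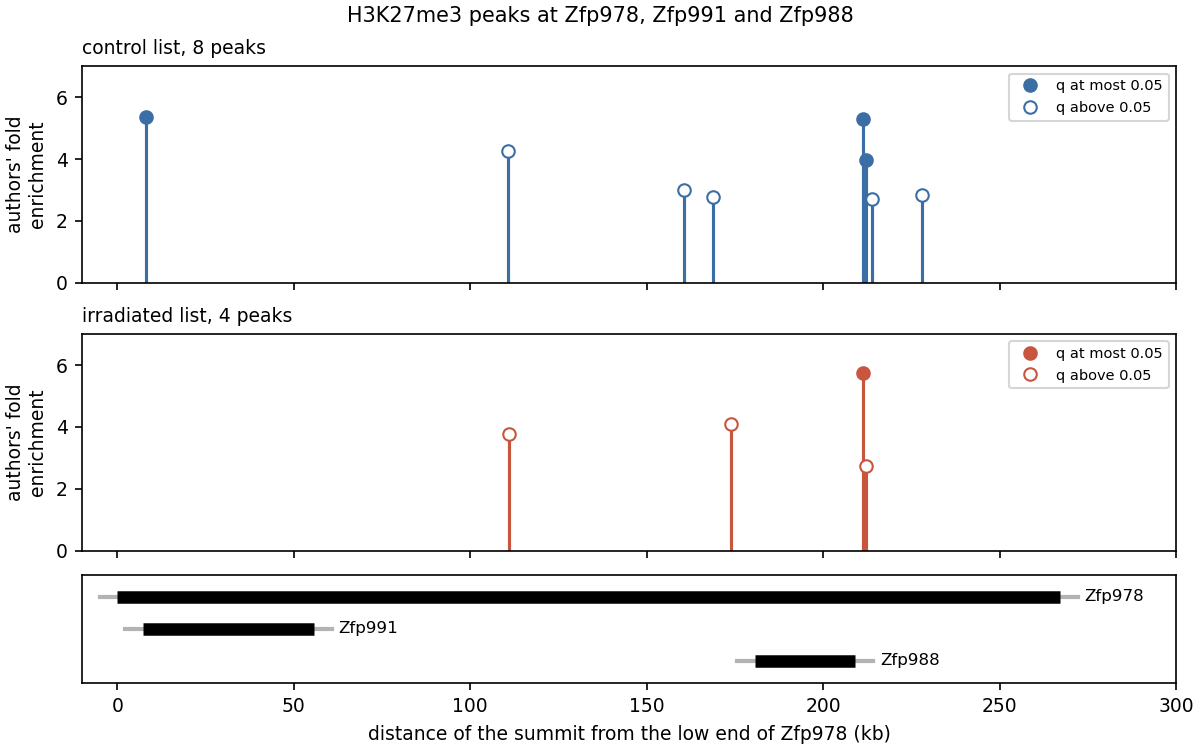
Peaks at the 3 genes. The upper panels show each peak's summit by its distance from the low-coordinate end of Zfp978 (kb) and the authors' fold enrichment, with points filled where q was 0.05 or less; the lowest panel shows gene bodies (black) with 5 kb on each side (grey). The 8 control peaks span most of Zfp978, while the 4 irradiated peaks lie between 111 and 212 kb.

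The values of a peak are the authors' own: the fold at the summit over the estimated background, and a q adjusted over the genome. The number of ChIP reads at the summit and the background there were recovered from fold and p. Background is given in scaled reads, in which 1 ChIP read counts as 0.620 in the control and 0.554 in the irradiated library. The lowest background of a list was 0.918 in the control and 0.704 in the irradiated library. At that level a peak needed at least 7 ChIP reads to be listed in the control and 8 in the irradiated library. Library totals are unknown, and the median peak of the whole list rested on 10 reads in the control and 11 in the irradiated library.

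The single peak of Zfp991 was a control peak of 367 bp at 147132713 to 147133079, with its summit 797 bp inside the low-coordinate end of the gene. It had 15 reads over a background of 0.918, the lowest of the list, and its fold was 5.37 at a q of 0.00198. By p it ranked 227th of the 9866 control peaks. The nearest irradiated peak was 102599 bp away, so this site, among the stronger ones of the control list, had no listed counterpart within 100 kb after irradiation. A site without a listed peak may still carry reads below the calling limit.

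Beyond the 3′ end of Zfp988 lay a group of 3 control and 2 irradiated peaks. The first control peak (147335895 to 147336253, 359 bp) began 1828 bp beyond the gene and had 19 reads over a background of 1.42, which gave a fold of 5.28 at a q of 0.00152. The irradiated peak that overlapped it (147335966 to 147336302, 337 bp) had 17 reads over a background of 0.810, which gave a fold of 5.75 at a q of 0.000505. These were the peaks with the lowest q at the 3 genes in their lists, ranked 222nd by p among control peaks and 383rd among irradiated peaks. Their overlap of 288 bp made up 80.2% of the control and 85.5% of the irradiated peak, and the summits were 41 bp apart.

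The next control peak (147336973 to 147337270, 298 bp) had 23 reads, the most at the 3 genes, over a raised background of 2.84, and reached a fold of 3.97 at a q of 0.0102. Its irradiated counterpart (147336922 to 147337213, 292 bp) had 18 reads over a background of 3, a fold of 2.74 and a q of 0.537. They overlapped by 241 bp, with summits 31 bp apart. Both libraries thus listed the site over a background well above their lowest, at 3.09 times that level in the control and 4.26 times in the irradiated list. The last peak of the group was a control peak (147338462 to 147338879, 418 bp), with 15 reads over a background of 2.81, a fold of 2.70 at a q of 0.831. It began 4395 bp beyond Zfp988, just within the 5 kb that the rule allows.

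In the interior of Zfp978, away from the nested genes, 1 site was listed in both libraries. The control peak (147235375 to 147236108) was 734 bp wide, the widest of the 12, and had 2 summits. Its stronger summit had 16 reads over a background of 1.56, a fold of 4.26 at a q of 0.0823. The irradiated peak (147235678 to 147236216, 539 bp) had 12 reads over a background of 1.03, a fold of 3.77 at a q of 0.149. The irradiated summit lay 399 bp from the stronger control summit and 10 bp from the weaker one, which had 12 reads and a fold of 3.37. The lists thus had the weaker control summit in common at this site, and the stronger control summit had none opposite it.

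**Figure D2:**
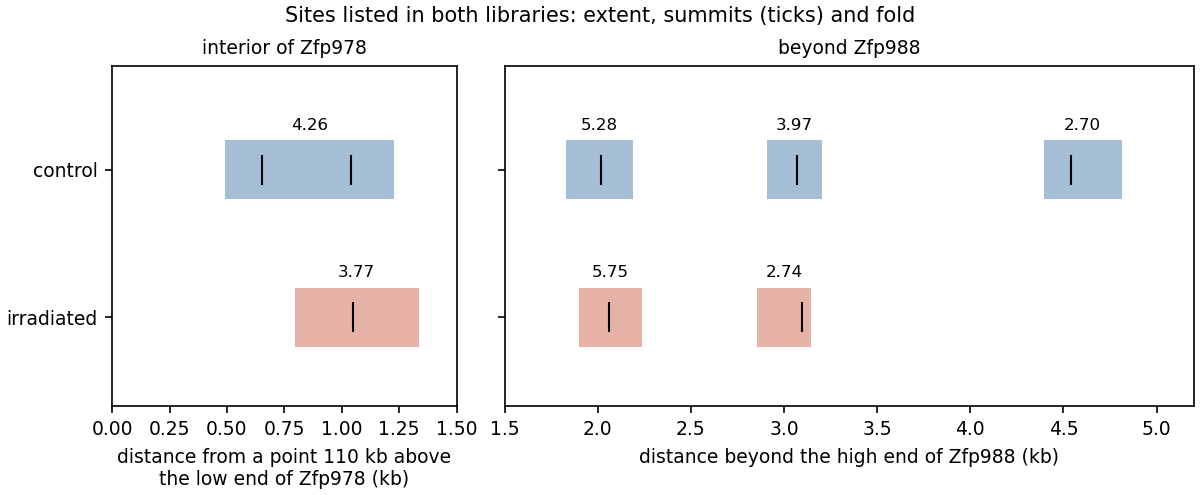
The sites listed in both libraries. Boxes show the extent of each peak along the chromosome (kb), ticks its summits and numbers the authors' fold; the left panel is inside Zfp978 and the right panel beyond Zfp988. The 3 pairs of peaks overlap by 241 to 431 bp, and the irradiated summit on the left lies below the weaker control summit.

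The other 3 control peaks in the interior were weak. The first (147285454 to 147285798) rested on 8 reads, for a fold of 2.99 at a q of 1. The second (147293610 to 147293981) rested on 7 reads, for a fold of 2.78 at the same q. Both were at or next to the fewest reads with which a peak could be listed. The third, at 147352743 to 147353026, had 14 reads over a background of 2.41, a fold of 2.83 at a q of 0.987. The only irradiated peak without a control counterpart (147298595 to 147298864, 270 bp) had 13 reads over a background of 1.00, a fold of 4.10 at a q of 0.0536. It lay 6740 bp before the start of Zfp988, outside the 5 kb of that gene, and 4614 bp from the nearest control peak.

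Among themselves the control peaks had folds of 2.70 to 5.37 with a median of 3.48, near the median of 3.43 of their list, and 7 to 23 reads with a median of 15. The irradiated peaks had folds of 2.74 to 5.75 with a median of 3.94, against 3.67 in their list, and 12 to 18 reads with a median of 15. A q of at most 0.05 was reached by 3 control peaks and 1 irradiated peak, against 6.84% of all control and 15.2% of all irradiated peaks. The q of the strongest peaks was known when the genes were chosen, so these counts are a description. Widths were 284 to 734 bp and 270 to 539 bp, and the peaks covered 3177 bp and 1438 bp of the 267 kb of Zfp978. The median widths of the whole lists were 357 and 364 bp, with upper quartiles of 458 and 483 bp. Narrow peaks were thus general in both lists, so these widths cannot tell whether a broad domain lay over the genes. Folds of the lists were scaled separately and are set side by side only. In the 3 overlapping pairs the irradiated fold was 0.886, 1.09 and 0.690 times the control fold, in the order of their positions along the chromosome.

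Raised background was frequent at the control peaks of the 3 genes. It was at least 1.5 times the lowest of the list at 5 of the 8 control peaks (62.5%, exact 95% interval 24.5 to 91.5), against 14.9% of all control peaks, and at 1 of the 4 irradiated peaks, against 26.4% of all irradiated peaks. All 3 control peaks beyond Zfp988, which lie close together, were among the 5. The interval treats the peaks as independent, which neighbouring peaks need not be, so it may be too narrow. At the other genes of the cluster 0 of 11 control peaks and 0 of 2 irradiated peaks had such a background. It was not confined to the 3 genes, however: over the whole cluster from its first to its last gene, sequence between genes included, 11 of 34 control and 5 of 16 irradiated peaks had it, of which 5 and 3 lay between Zfp978 and Zfp982. When peaks over such a background were left out, 3 control and 3 irradiated peaks remained at the 3 genes. The equal counts depended on the bound of 1.5. Irradiated peaks at 1.42 and 1.46 times the lowest lay just under it, and control peaks at 1.55 and 1.70 times lay over it. The part of raised input, of copied sequence or of read placement in the listed peaks was not tested.

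**Figure D3:**
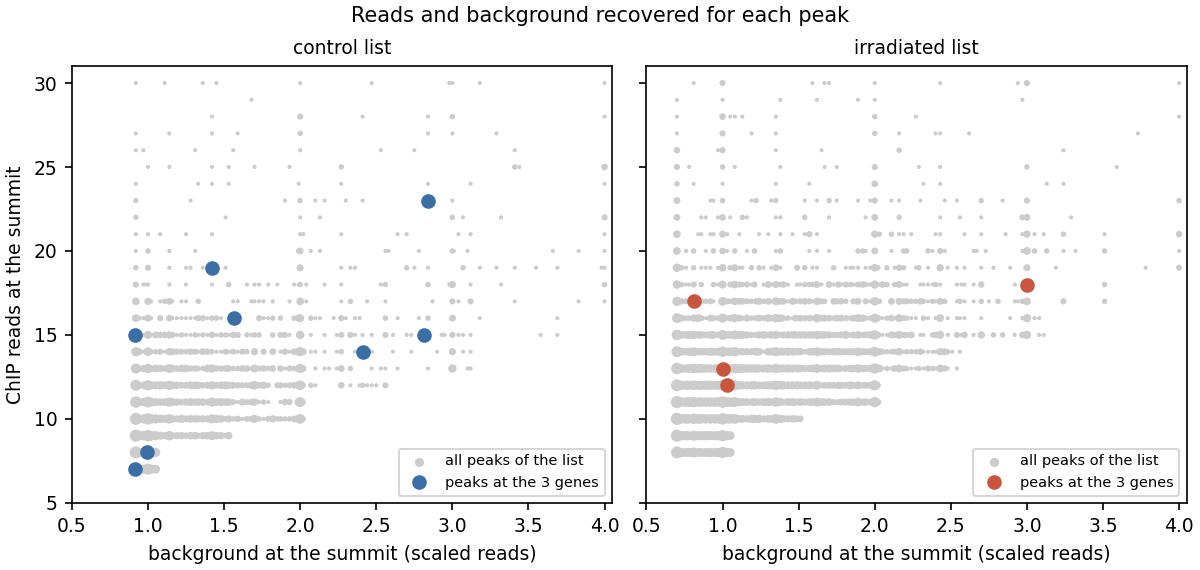
ChIP reads at the summit (vertical axis) against background in scaled reads (horizontal axis), recovered from fold and p. Grey points are all peaks of a list with at most 30 reads and a background of at most 4, larger where more peaks coincide; coloured points are those at the 3 genes. Of the 8 control peaks 5 lie at a background of 1.42 or more, while 3 of the 4 irradiated peaks lie at 1.03 or less.

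Overlap of at least 1 bp joined 3 of the 8 control peaks (37.5%, exact 95% interval 8.52 to 75.5) to 3 of the 4 irradiated peaks (75%, 19.4 to 99.4). Over the whole lists 21.4% of control and 13.3% of irradiated peaks were shared in this way. The intervals of the members are wide, and the control interval includes the share of its whole list. Of the 3 control peaks that reached a q of 0.05 the pair beyond Zfp988 was shared and the Zfp991 peak was not.

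The number of peaks per length stood above that of the genome in both lists. The genes and their 5 kb held 2.89 control and 1.44 irradiated peaks per 100 kb, against 0.365 and 0.595 over the annotated span of the genome. The irradiated list was the longer one, with 1.63 irradiated peaks for each control peak, and on chromosome 4 outside the cluster the ratio was 1.96 (exact 95% interval 1.76 to 2.17). At the 3 genes it was 0.500, but with 12 peaks in all its interval ran from 0.110 to 1.87, which includes the ratio of the whole lists. The cluster from its first to its last gene without the 3 members held 26 control and 12 irradiated peaks, a ratio of 0.462 (0.212 to 0.948). The irradiated count was the lower one both at the 3 genes and in the rest of their cluster. That rest was not uniform: between the windows of Zfp978 and Zfp982 it held 10 control and 9 irradiated peaks, a ratio of 0.9 (0.324 to 2.46). The region was picked for its peaks and with this order of the lists known, so the densities and the ratios are a description. In bins of 100 kb the peaks of both lists were densest at and just above the high-coordinate part of Zfp978.

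**Figure D4:**
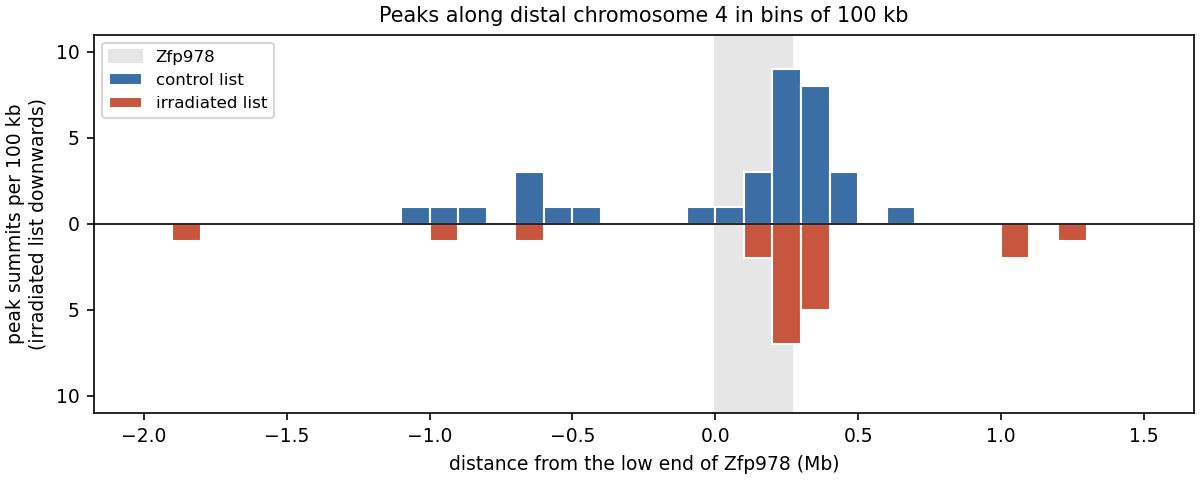
Peak summits per 100 kb along distal chromosome 4 by distance from the low-coordinate end of Zfp978 (Mb), control list upwards and irradiated list downwards, Zfp978 shaded. The fullest bin, which covers the high end of Zfp978 and sequence beyond it, holds 9 control and 7 irradiated summits.

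Zfp978 is a long gene, and long genes have more room for peaks. At least 8 control peaks were listed at 72 protein-coding genes (0.329%) and at least 4 irradiated peaks at 516 (2.36%). A control count that exceeded the irradiated count by 4 or more was found at 33 genes, 13 of them on chromosome 15 and 3 on chromosome 4. Of the 666 genes at least as long as Zfp978, 278 had a peak in either list and 105 had more control than irradiated peaks. Among all 21900 protein-coding genes 781 (3.57%) had more control and 1706 had more irradiated peaks. Long genes with more irradiated peaks were not counted, so no lean of long genes to either list can be read from this.

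The cluster held 17 genes named Zfp or Rex2, the members included. Control peaks were listed at 11 of these and irradiated peaks at 4, all 4 being among the 11. Among the 14 genes that are not members the numbers were 8 (57.1%) and 2 (14.3%), where 7.13% and 9.74% of all protein-coding genes had a peak. At a q of at most 0.05, 5 of the 17 genes had a control peak and 3 had an irradiated peak. The 5 were the 3 members, Zfp600 and Zfp982. The 3 with an irradiated peak were Zfp982 and the members Zfp978 and Zfp988, which share theirs. The share of all protein-coding genes at this q was not counted, and the members were chosen with their q known. Zfp982, the next gene above Zfp978, held 3 control peaks, with a highest fold of 5.69, and 1 irradiated peak with a fold of 5.76. Zfp600, a gene on the low-coordinate side, had 1 peak in each list, with folds of 10.2 and 4.38 and q of 1.74e-13 and 0.0536. Its control fold was the highest of any gene in the cluster, above the 5.37 of Zfp991 and Zfp978. Control peaks without an irradiated one were listed at Zfp992 and Zfp993, with 2 each, and at Zfp981, Zfp985, Zfp979 and Zfp984, with 1 each. None of these control peaks reached a q of 0.05. The lowest q was 0.0823 at Zfp992, 0.831 at Zfp984 and 0.385 at the rest. The most reads at a peak of each gene ranged from 9 to 12. Zfp981 lies partly inside Zfp993 and shares its peak with it. No peak of either list was found at Zfp990, Zfp980, Zfp987, Rex2, Zfp534 or Zfp933. The promoters most like that of Zfp988 thus belonged to a pair of genes without a peak.

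**Figure D5:**
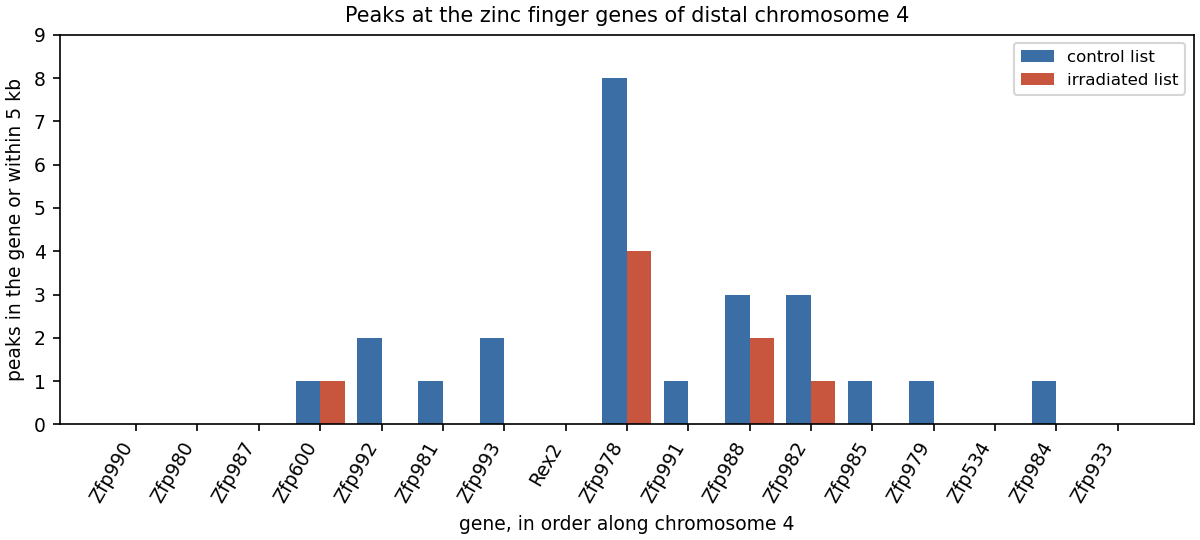
Peaks in each of the 17 zinc finger genes of the cluster or within 5 kb, in order along chromosome 4, control and irradiated list side by side. The bars of Zfp978 (8 and 4) include the peaks of Zfp991 and Zfp988; at no gene is the irradiated bar the higher one.

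Of 384 protein-coding genes elsewhere whose symbol begins with Zfp, 11 (2.86%) had at least 1 control peak and as many had an irradiated one, below the shares of all protein-coding genes. Among these genes the nearest to Zfp978 in its pair of peak counts was Zfpm2 on chromosome 15, which encodes a cofactor of GATA factors, with 9 control peaks and 1 irradiated peak, at a Euclidean distance of 3.16 between the pairs of counts. Its highest fold was 4.40 among control and 4.49 among irradiated peaks. It was followed by Zfp800 on chromosome 6 (4 control peaks and no irradiated peak), Zfp423 on chromosome 8 (1 and 4), Zfp467 on chromosome 6 (1 and 2) and Zfp831 on chromosome 2 (0 and 4), at distances of 5.66 to 8. Genes of other names were not ranked.

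Genes that work with KRAB zinc finger proteins had no listed peak. Of 14 such genes, among them Trim28, which encodes the corepressor, and Setdb1, which encodes an H3K9 methyltransferase, 0 held control and 0 irradiated peaks, where 7.13% and 9.74% of all protein-coding genes did, shares at which few peaks would be listed in a set of this size. The Hox genes of the 4 clusters, classic Polycomb targets, served to set the lists against the known places of the mark. Of 39 Hox genes 2 (5.13%) held control peaks and 4 (10.3%) held irradiated ones, near the 7.13% and 9.74% of all protein-coding genes. They were Hoxc4 and Hoxc5 in both lists, and Hoxb3 and Hoxc13 in the irradiated list. Hoxc4 and Hoxc5 are neighbours whose 5 kb windows overlap. Each had 1 control and 3 irradiated peaks, so the same peaks may be counted at both.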

How the data were processed

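H3K27me3 ChIP-seq of GL261 cells gave 1 peak list for the control and 1 for the irradiated library; the 2 input libraries were not used on their own. BWA and deepTools are named, per the submitters' processing notes, together with the build mm10, with no version numbers. Which caller was used and how, how multiply placed reads were treated and how the input entered are not given in the sources. Deposited positions (start, end, summit) are other values in bp and are printed counted from 1. The deposited score is 10 times the −log10 p with its decimals dropped, in 100% of lines. The deposited ratio is the authors' fold over background, and the deposited −log10 values are those of an unadjusted p-value and of a q-value adjusted over the genome. Peaks reached up to an unadjusted p of 0.00495 (control) and 0.00499 (irradiated), and a q of 0.05 or less was held by 675 and 2453 peaks.

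Further summits of 1 interval (215 control and 679 irradiated lines) were joined to their peak, which took the values of its strongest summit. Reads and background were recovered with scipy 1.17.1 under a Poisson model in which fold is the scaled pileup plus 1 over background plus 1, and p is the upper tail. Within a tolerance of 0.0005 in −log10 p a solution was found for 100% of lines, with several solutions in 0% of control and 0.209% of irradiated lines, and with 1 solution for each peak at the 3 genes. In 3000 simulated peaks per list 99.97% (control) and 100% (irradiated) were recovered. These peaks were made with the same model, so they check the solving and not whether the deposited peaks follow the model. The labels name no caller to which this model belongs. Intervals are exact (Clopper-Pearson). Genes came from RefSeq (GRCm38.p6), and promoters were aligned with biopython 1.88, with free ends.

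The members and lists were chosen with earlier results of these data known. The genes named were the 3 members and genes named Zfp or Rex2 on chromosome 4 from 140 Mb. Also named were the 5 genes elsewhere whose symbol begins with Zfp and that were nearest in their pair of counts. The last were the Hox genes and 14 genes taken as cofactors, Zfp809 and Zfp57 among them. Alternatives were other windows, stricter p or q, equal numbers of peaks, separate lines, merging within 1000 bp, low background and other definitions of overlap.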

Additional observations from a re-analysis of the deposited data

How the results depend on the processing

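Of 38 alternative values for 7 counts, 31 stayed within 1.5 times the count first given. Some of these could not move. The control list holds 9866 peaks, so equal numbers left its counts as they were. All peaks at the 3 genes lie in the body of Zfp978, so narrower windows could not change their number. The peaks at the 3 genes numbered 8 and 4 with windows of 0, 2000 and 10000 bp. A q of at most 0.05 left 3 control peaks and 1 irradiated peak at the 3 genes, and a −log10 p of at least 5 left 4 and 1. A background under 1.5 times the lowest left 3 control and 3 irradiated peaks; the bound follows each list's own lowest background. With the 9866 strongest peaks of each list there were 8 control and 3 irradiated peaks. Genes of the cluster with a control peak numbered 7 in place of 11 without a window and 5 at a q of at most 0.05. The overlap of 3 control peaks held with a reciprocal overlap of 50% and with a gap of up to 1000 bp. No paired analysis was possible because each condition had 1 library. Most peaks rested on few reads, so a site listed in 1 library alone may carry reads below the limit in the other.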

Other observations

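A dense group of peaks was listed just beyond the 5 kb of Zfp978, in the 41.1 kb between its window and that of Zfp982, and was singled out after its values were seen. It held 10 control peaks within 16.5 kb and 9 irradiated peaks within 16.6 kb, starting 24976 bp and 24311 bp above the end of Zfp978. Their folds ranged from 2.26 to 6.80 in the control and from 2.99 to 7.16 in the irradiated list, and the highest of each exceeded the highest fold at the 3 genes, 5.37 and 5.75. A q of at most 0.05 was reached by 6 peaks of each list, against 6.84% of all control and 15.2% of all irradiated peaks. The background was at least 1.5 times the lowest of the list at 5 of the 10 control and 3 of the 9 irradiated peaks. Of the control peaks 4 overlapped an irradiated peak, and of the irradiated peaks 6 overlapped a control peak. Per 100 kb this came to 24.3 control and 21.9 irradiated peaks, and irradiated peaks were 0.9 times as many as control peaks (exact 95% interval 0.324 to 2.46). No annotated gene lay under these peaks: the nearest were Gm46898, a long noncoding RNA gene on the low-coordinate side, and Zfp982. On the other side of Zfp978 the nearest control peak (147114121 to 147114452, fold 3.08, q of 1) lay 10430 bp away and the nearest irradiated peak 639518 bp away.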
